A study of Mus musculus with 79 samples.

Results

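The genes described here lie in the class I region of the mouse major histocompatibility complex (MHC), in a window of 1 Mb on either side of the start of H2-T22 (chr17:36037128-36042747, minus strand, GRCm38). A gene was counted as part of the locus when it was annotated on chromosome 17 and its smallest start fell between 35037128 and 37037128. By this rule the locus held 182 of the 55471 genes in the count table. Of these, 28 carried an H2- symbol, the symbol of the class I heavy chains and their pseudogenes, and 154 were other genes. In the 79 libraries, 33 of the 182 genes had no count at all, and each of the others had at least 1 read. Among the 28 H2- genes, 21 had a count, and the 7 at 0 were H2-M genes. The annotation gave 91 of the 182 genes as protein coding, 31 as unprocessed and 20 as processed pseudogenes and 11 as antisense transcripts.

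Class I molecules are heavy chains that pair with beta-2 microglobulin and are displayed on the cell surface, where T cells and natural killer cells read them. H2-D1 is a classical heavy chain that presents peptides to CD8 T cells. The Q, T and M genes encode non-classical chains with narrower roles: H2-T23 encodes Qa-1, a ligand of natural killer cell receptors, and H2-T22 and its close relative H2-T10 are recognized by gamma delta T cells. In the brain, class I genes are read in microglia, endothelium and neurons, and they respond to interferons. The locus varies strongly between mice of different descent, and the CD-1 stock used here is outbred.

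Bulk RNA sequencing covered the medial prefrontal cortex (mPFC) and the ventral hippocampus (vHipp) of 40 wild-type male CD-1 mice. CSDS mice had gone through 21 days of a modified chronic social defeat stress, CTRL mice had not, and mice of either kind received a single injection of saline or of ketamine (10 mg/kg), with the tissue taken as 1 mm punches 7 days later. The study's methods give an age of 9 to 10 weeks for the mice and no separate age at the time the tissue was taken. Mice of all groups had lived in social boxes. Each of the 4 groups had 10 mice, with 9 CSDS ketamine libraries of the mPFC because that of mouse 5 was not analysed here. Social rank and the box of a mouse were not in the labels used here, so each group holds mice of mixed rank. Per the study's methods, mice lived in groups of 4 that were kept together through the defeats, so mice of 1 treatment group can share a box, a box and its stress condition cannot be told apart, and the p-values treat mice as independent.

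Total counts per library lay between 11726129 and 41767119 (median 19638060). Levels are given as CPM, which are counts scaled to the library size with TMM factors. Cortex markers were higher in the mPFC in 4 of 4 genes, and of 4 hippocampus markers 3 were higher in the vHipp. The vHipp library of mouse 11 (CSDS, ketamine) stood apart in its glial markers, with a summed level of 661 CPM for the 7 microglia genes and 2340 CPM for the 4 astrocyte genes, where the medians of its group were 272 and 850. In bulk tissue, fewer cells of a type and less RNA per cell cannot be told apart.

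H2-T22 stands head to head with Gm6034, a protein coding gene on the plus strand, and 213 bases separate their annotated ends. H2-T10, 78.7 kb further on, has the same arrangement with Gm19684, with 212 bases between them. The stretch between H2-T22 and Gm6034 (chr17:36042748-36042960, GRCm38.p6, from RefSeq) is shown because the levels of both genes are compared later. It is written 5′ to 3′ on the strand of H2-T22, with matches to an interferon response motif (TTTC, any 2 bases, TTTC) and to ATTGG (the Y box of MHC promoters) in capitals, both strands searched.
H2-T22 to Gm6034: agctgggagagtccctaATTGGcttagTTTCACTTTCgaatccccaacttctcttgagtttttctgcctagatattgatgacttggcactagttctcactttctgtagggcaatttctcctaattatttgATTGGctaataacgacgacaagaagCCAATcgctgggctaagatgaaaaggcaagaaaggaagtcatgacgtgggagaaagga
Its interferon match starts at -191 from the RefSeq start of H2-T22. The 250 bases before the RefSeq start of H2-T23 held the same motif at -124, and those before the RefSeq start of H2-D1 held an NF-kB site at -171 and TGACGC (the X2 box) at -101, each shown in capitals within 30 bases. The RefSeq starts of H2-T22, H2-T23 and H2-D1 differ from the outer ends of these genes in GENCODE, which are the positions given elsewhere here. The 3 stretches of 30 bases lie within the GENCODE bounds of their genes.
H2-T23 (chr17:36032806-36032835, minus strand): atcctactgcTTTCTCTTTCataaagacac
H2-D1 (chr17:35262914-35262943, plus strand): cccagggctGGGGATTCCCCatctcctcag
H2-D1 (chr17:35262981-35263010, plus strand): ccgggacactgaTGACGCgctggcaggtct
Of the 90 genes of the locus with a RefSeq promoter, 7 held the interferon motif, against 3.04% of 27025 promoters of the same length. ATTGG stood in 42 of the 90 and in 34.5% of all, TGACGC in 7 and in 6.14%, and the 11 letters of the NF-kB site in 2 and in 0.0222%. These matches are descriptions of letters, and binding was not measured.

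Among the class I genes of the locus, H2-D1 had the highest level and the others were low. After the filter on low counts (more than 10 in total and more than 3 libraries with a count in the region), all but 64 of the 182 genes were tested in the mPFC and all but 69 in the vHipp, with 17 H2- genes in each. In the mPFC 56 genes had a median of at least 1 CPM, and 51 did in the vHipp. Per kilobase of transcript (RPKM), Atp6v1g2, a subunit of the vacuolar proton pump, led both regions, with a median of 199 RPKM in the mPFC and 231 in the vHipp. Tubb5, a beta tubulin, came next, followed by Prrc2a with 78.5 and 82.7 RPKM. Gnl1, a GTP-binding protein, the RNA helicase Ddx39b, the flotillin Flot1, the chaperone Bag6, the kinase subunit Csnk2b, the phosphatase inhibitor Ppp1r11 and the lipase Abhd16a filled the other places among the 10 highest in each region. H2-D1 ranked 11 in the mPFC (median 19.6 RPKM) and 12 in the vHipp (16.3 RPKM).

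H2-D1 (chr17:35262730-35267499, plus strand, at -774.4 kb from H2-T22) ranged from 28.2 to 81.5 CPM in the mPFC (median 50.5, 39 mice) and from 22.6 to 67.6 CPM in the vHipp (median 42.2, 40 mice). H2-Q4 was the next H2- gene by median CPM, with a median of 5.37 in the mPFC (3.14 to 9.47) and 3.73 in the vHipp (2.07 to 7.10). H2-T10 had medians of 2.36 and 2.94 CPM, H2-Q10 1.82 and 0.181, H2-M5 1.67 and 1.49, H2-T24 0.996 and 0.905, and H2-M6-ps 1.07 and 0.282. H2-Q6 had medians of 0.985 and 0.709 CPM and H2-Q7 of 0.939 and 0.376. H2-Q1, H2-Q2, H2-Q5, H2-Bl, H2-T-ps and H2-T3 all had medians below 1 CPM in both regions, and H2-Q5 had a median of 0. The class I genes share sequence: of the 100-base windows in their transcripts, 3.6% for H2-D1, 8.9% for H2-T22, 7.1% for H2-T10, 12.0% for H2-Q7 and 10.8% for H2-Q6 occurred in at least 1 other gene, so the split of reads between them is uncertain.

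H2-T22 took 2 separate levels. In the mPFC, 31 mice had between 0.103 and 1.04 CPM (median 0.670) and 8 mice had between 8.65 and 11.9 CPM (median 9.31). In the vHipp, 32 mice had between 0.336 and 1.52 CPM (median 0.939) and the same 8 mice had between 6.99 and 9.40 CPM (median 7.87). The step between the lowest of the 8 and the highest of the others was 2.79 on the log2(CPM + 0.25) scale in the mPFC and 2.03 in the vHipp. The 8 mice were numbers 3, 6, 11, 12 and 20 (CSDS, ketamine), 2 and 15 (CSDS, saline) and 22 (CTRL, saline), and no ketamine-treated CTRL mouse was among them. A step of at least 1 that parts the mice in the same way in both regions was found for 1 gene of the locus and for 19 of 27874 genes (0.0682%).

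**Figure D1:**
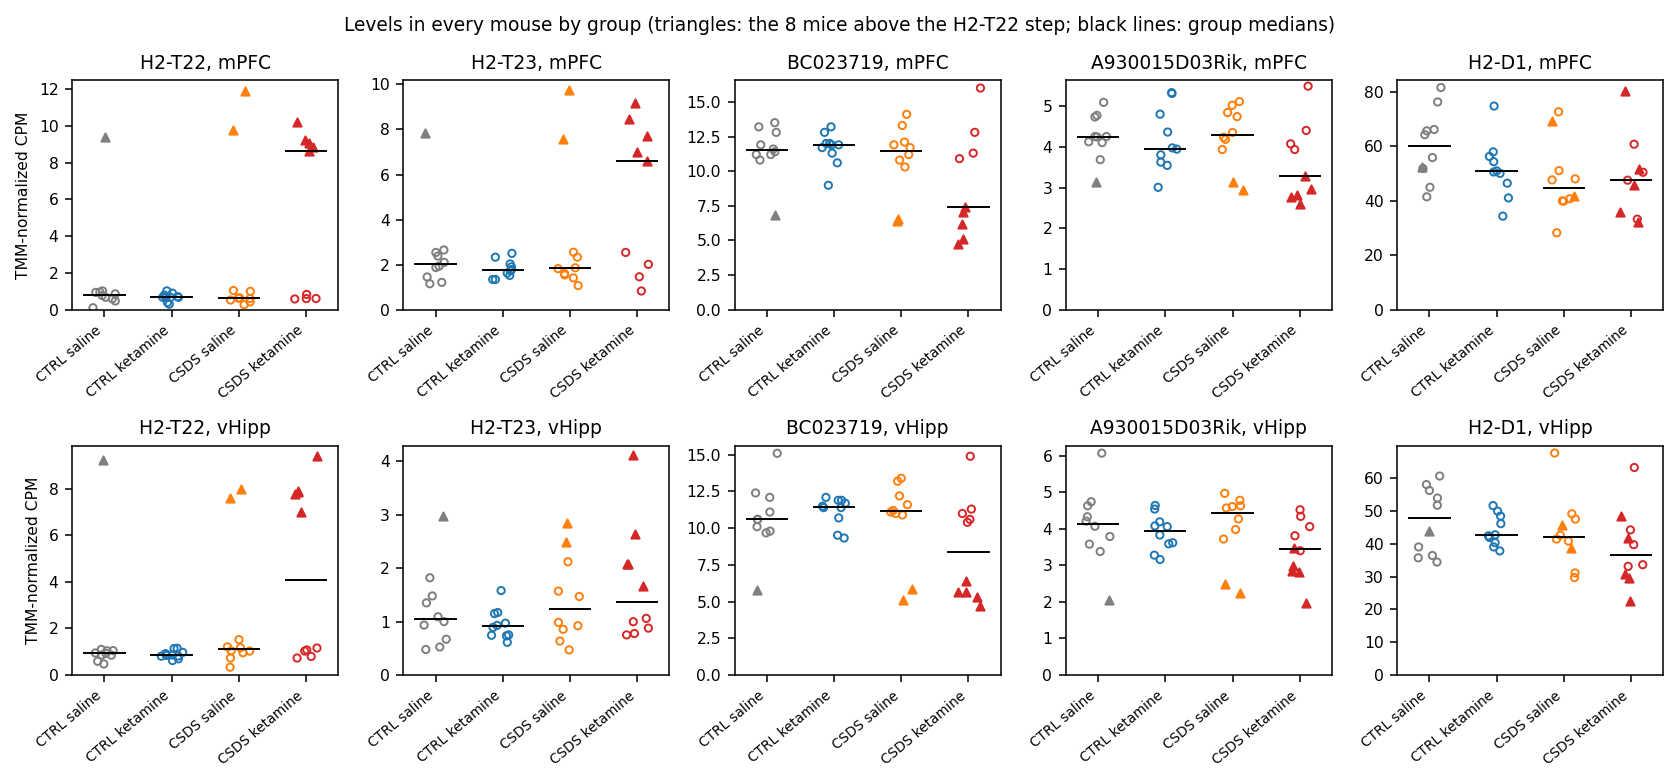
TMM-normalized CPM of H2-T22, H2-T23, BC023719, A930015D03Rik and H2-D1 in each mouse by group, in the mPFC (upper row) and the vHipp (lower row), with the 8 mice of the high H2-T22 level as filled triangles and group medians as black lines. The triangles stand at 8.65 to 11.9 CPM for H2-T22 in the mPFC and at 4.75 to 7.39 CPM for BC023719, below the other mice, while for H2-D1 they are spread among the others.

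Within a level, no correlation of H2-T22 between the regions passed the test. Over the 31 low mice with both regions, Pearson's r was 0.0966 (permutation p = 0.571) and Spearman's rho 0.0823 (permutation p = 0.654). Over the 8 high mice, r was -0.187 (exact permutation p = 0.70) and rho -0.0476 (exact permutation p = 0.935). Without the 2 mice farthest from the median, r was 0.152 and 0.192. These and the corresponding tests of H2-T23 and BC023719 below form a family of 6, and the adjusted p of r was 0.70 for both levels of H2-T22.

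Genes next to H2-T22 were ordered by the same 8 mice, some in the same direction and some in the opposite one. Over the 110 genes of the locus that were measured in both regions, the 8 mice filled at least 6 of the 8 highest places in the mPFC for Gtf2h4, 2310061I04Rik, H2-T23 and H2-T22, against 0.0825% of 27874 genes. They filled at least 6 of the 8 lowest places for Gm8801, A930015D03Rik, Gm6034, BC023719 and H2-T3, against 0.0969% of all genes. In the vHipp the same held for H2-T23 and H2-T22 at the high end (0.0287% of all genes) and for A930015D03Rik, BC023719 and H2-T10 at the low end (0.0825%). H2-T22 fills these places by definition, since its own step set the 8 mice. The 8 mice are a description of H2-T22 levels and not a group of the study, so no test was run between them and the others.

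H2-T23 (chr17:36029773-36032855, minus strand), at -7.4 kb from H2-T22, was high in the 8 mice. In the mPFC they had 6.59 to 9.74 CPM (median 7.79), above the 0.828 to 2.65 CPM (median 1.82) of the other 31 mice. In the vHipp they had 1.67 to 4.11 CPM (median 2.55), and the others 0.471 to 2.12 CPM (median 0.932), so the ranges overlapped. The vHipp value of 4.11 CPM came from mouse 11, whose glial markers were high, and the next highest was 2.98 CPM in mouse 22. Within each level, no correlation of H2-T23 between the regions passed the test. Below the step (31 mice) r was 0.0881 (permutation p = 0.636) and rho 0.0718 (permutation p = 0.695), and above it (8 mice) r was -0.242 (exact permutation p = 0.574) and rho -0.119 (exact permutation p = 0.793). Without the 2 mice farthest from the median, r was 0.00712 and 0.0663.

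BC023719 (chr17:36111426-36117121, plus strand), an antisense transcript 74.3 kb beyond H2-T22, was low in exactly these 8 mice in both regions. In the mPFC the 8 mice had 4.75 to 7.39 CPM (median 6.49) and the other 31 had 8.98 to 16.0 CPM (median 11.9). In the vHipp the 8 mice had 4.70 to 6.42 CPM (median 5.65) and the other 32 had 9.33 to 15.1 CPM (median 11.2). The groups of mice did not overlap in either region. Its step, 0.273 and 0.523 on the log2 scale, was smaller than that of H2-T22, and with no minimum step 2 genes of the locus, H2-T22 and BC023719, and 63 of 27874 genes (0.226%) parted the mice alike in both regions. BC023719 also varied among the 31 mice of the low H2-T22 level, with r of 0.603 between the regions (permutation p = 0.00054, adjusted p = 0.00324), rho of 0.577 (permutation p = 0.00082, adjusted p = 0.00492) and r of 0.603 without the 2 farthest mice. Over the 8 mice r was 0.158 (exact permutation p = 0.70) and rho 0.452 (exact permutation p = 0.267), and r was 0.783 without the 2 farthest.

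BC023719 runs against H2-T10, with which it shares 925 exonic bases on the opposite strand. H2-T10 (chr17:36115876-36121465, minus strand) had 1.26 to 2.62 CPM in the 8 mice in the mPFC and 1.45 to 3.79 CPM in the others. In the vHipp it had 1.25 to 2.76 CPM (median 2.29) in the 8 mice and 2.23 to 4.24 CPM (median 3.06) in the others. The ranges overlapped in both regions, and 6 of the 8 lowest vHipp values were those of the 8 mice.

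A930015D03Rik (chr17:35994453-36038435, plus strand) stands in the same relation to H2-T22, which it overlaps by 1308 bases on the opposite strand, and it also runs across H2-T24 and H2-T23 without touching their exons. In the 8 mice, whose H2-T22 level was high, A930015D03Rik was low, at 2.61 to 3.30 CPM in the mPFC (median 2.96) against 3.01 to 5.50 CPM (median 4.26) in the others. In the vHipp it was at 1.98 to 3.48 CPM (median 2.65) against 3.16 to 6.07 CPM (median 4.13). In each region 7 of the 8 lowest mice were of the 8. The libraries were stranded, but whether strand was used in counting is not given in the sources used here, so reads of each antisense transcript and its partner may have been counted together or left out. Of its 100-base windows, BC023719 shared 6.0% with A930015D03Rik.

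Gm6034 (chr17:36042961-36058645, plus strand), across the 213 bases shown above, had 0.284 to 1.21 CPM in the 8 mice in the mPFC (median 0.735) and 0.802 to 2.48 CPM in the others (median 1.43). Of the 8 lowest mice, 7 were of the 8. In the vHipp the ranges were 0.334 to 0.660 CPM and 0.309 to 1.25 CPM, with 4 of the 8 lowest among the 8. Gm6034 shared 22.8% of its windows with Gm19684, the neighbour of H2-T10, which had 0.147 to 0.310 CPM in the 8 mice and 0.159 to 0.883 CPM in the others in the mPFC.

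A pair of genes farther out, 2310061I04Rik and Gtf2h4, had the 8 mice in at least 6 of the 8 highest places in the mPFC and in 5 of 8 in the vHipp, and the ranges overlapped those of the other mice in both regions. 2310061I04Rik, at -144.5 kb from H2-T22, shared no window with another gene and had 33.8 to 44.1 CPM in the 8 mice in the mPFC (median 38.0) and 26.2 to 35.6 CPM in the others (median 30.7). In the vHipp it had 29.4 to 39.8 CPM (median 38.2) and 27.9 to 38.7 CPM (median 31.0). Gtf2h4, a subunit of the transcription factor TFIIH at -369.4 kb, had 8.89 to 12.2 CPM in the 8 mice in the mPFC and 7.36 to 10.7 CPM in the others.

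Several other class I genes overlapped between the 8 mice and the others. H2-D1 had 32.0 to 80.1 CPM in the 8 mice (median 48.7) and 28.2 to 81.5 CPM in the others (median 50.5) in the mPFC. In the vHipp these were 22.6 to 48.3 CPM (median 40.3) and 29.7 to 67.6 CPM (median 42.5). H2-Q4, H2-Q6, H2-Q7, H2-Q10, H2-T24 and H2-M5 also overlapped between the 8 mice and the others in both regions.

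**Figure D2:**
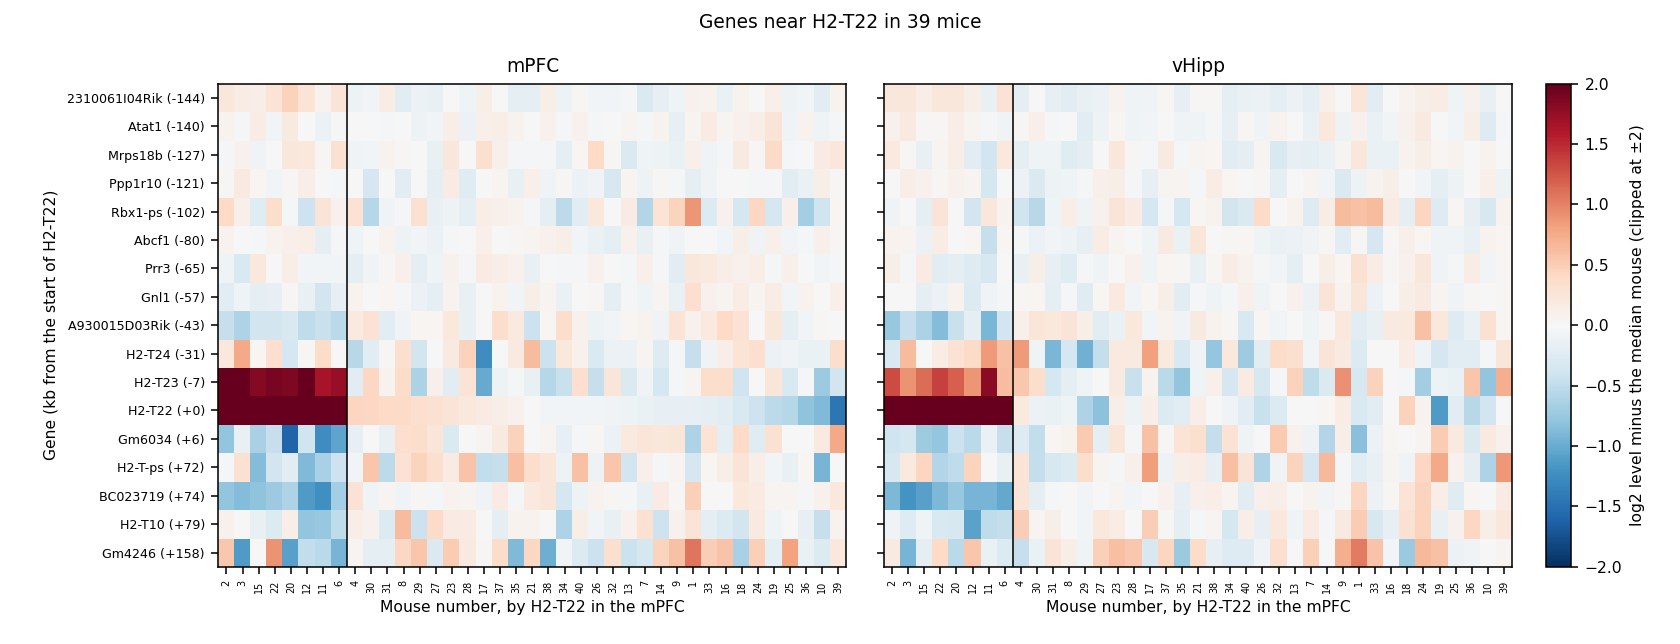
Genes of the locus from 150 kb before to 200 kb after the start of H2-T22 with a mean of at least 0.5 CPM in the mPFC (rows, with the distance in kb) in the 39 mice with both regions (columns, ordered by H2-T22 in the mPFC), as the log2(CPM + 0.25) level minus the median mouse, clipped at 2 in either direction. To the left of the black line, in the 8 mice, H2-T22 and H2-T23 are red and A930015D03Rik, Gm6034 and BC023719 are blue in the mPFC, whereas Atat1, Ppp1r10 and Abcf1 stay near white.

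Markers of other cell types were set beside these values. Mog, a myelin gene 973.6 kb beyond H2-T22, had 12.2 to 67.4 CPM in the 8 mice in the mPFC (median 34.7) and 5.92 to 32.0 CPM in the others (median 13.3), and 5 of the 8 highest mice were of the 8. In the vHipp it had 12.2 to 29.6 CPM and 11.2 to 42.1 CPM, with 1 of the 8 highest. The summed level of the 5 oligodendrocyte genes in the mPFC reached 5810 CPM in CSDS ketamine (lowest 508), 4770 in CSDS saline (lowest 560), 3320 in CTRL ketamine (lowest 567) and 5900 in CTRL saline (lowest 731). The highest library was that of mouse 6 in CSDS ketamine, of mouse 2 in CSDS saline and of mouse 22 in CTRL saline, each one of the 8 mice, and that of mouse 32 in CTRL ketamine. In the vHipp, where the same 8 mice parted for H2-T22 and BC023719, these sums lay between 977 and 3540 CPM over the 4 groups. The 4 lymphocyte genes summed to between 0 and 0.717 CPM in the mPFC, and the 3 measured in the vHipp to between 0 and 0.279 CPM. The part of these markers in the levels of the locus was not tested.

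The spread between mice that both regions share was then tested for each gene, with no grouping of the mice by level. In the 39 mice with both regions, edgeR's quasi-likelihood F test compared the variation of a mouse that both of its libraries share with the variation they do not share. At an adjusted p under 0.05, 26 genes of the locus were called (21.0% of those tested), against 18.7% of all 31497 genes, so the locus as a whole stood near the background. Of the 17 H2- genes, 6 were called: H2-T22, H2-T23, H2-D1, H2-T10, H2-Q7 and H2-Q6. H2-T22 had an F of 28.1 (adjusted p = 1.71e-17) and ranked 38 of all genes, and BC023719 had an F of 17.0 (adjusted p = 1.81e-13) and ranked 73. H2-T23 followed with an F of 6.63 (adjusted p = 5.32e-07), Gm11127 with 6.43 (adjusted p = 1.65e-06), Abhd16a with 5.25 (adjusted p = 1.09e-05), Gpank1 with 5.18 (adjusted p = 1.26e-05) and Aif1, the microglia gene of Iba1, with 4.89 (adjusted p = 2.5e-05). The lymphotoxin gene Lta had an F of 4.52, Gm4246 of 3.85 and H2-D1 of 3.76 (adjusted p = 0.000431). Gm11127 shared 42.7% of its windows with other genes.

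By position, the share of called genes was highest around H2-T22. From 150 kb before to 150 kb after H2-T22, 11 of 31 genes were called (35.5%, median F 1.81), and from 1000 to 500 kb before it, 11 of 47 were called (23.4%, median F 1.33). Between these, from 500 to 150 kb before H2-T22, 1 of 22 was called (median F 1.10). Beyond it, 2 of 8 were called from 150 to 500 kb (25.0%) and 1 of 16 from 500 to 1000 kb. Over all genes tested, 18.7% were called and the median F was 1.21. These counts describe the locus, and the bins were set with the data known.

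**Figure D3:**
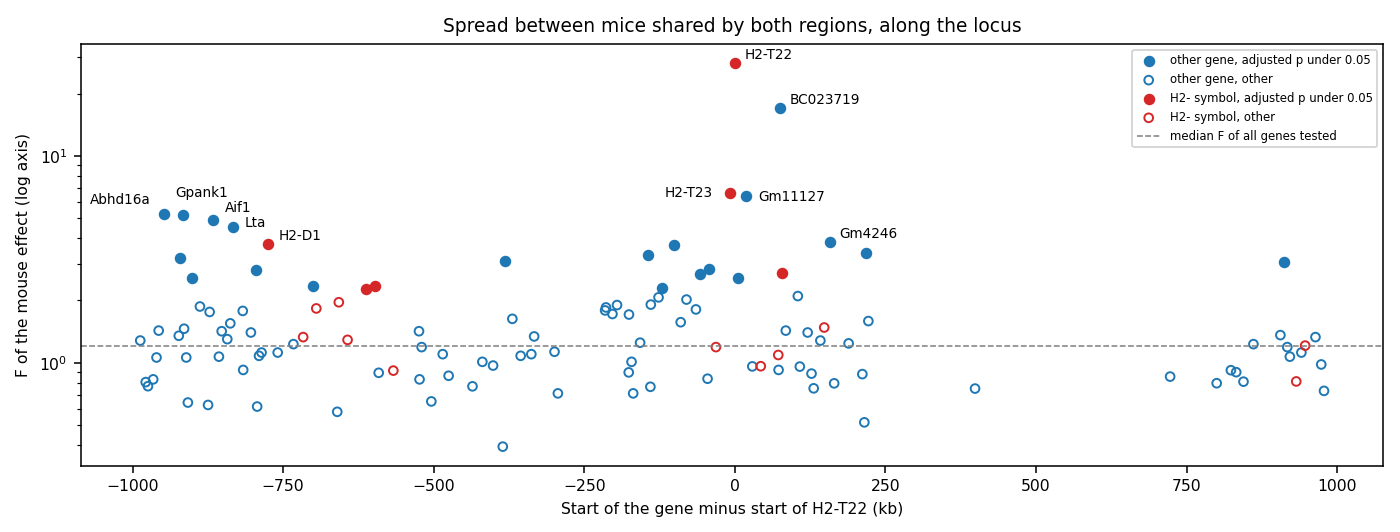
F of the spread between mice that both regions share (log axis) for the tested genes of the locus against the distance of their start from that of H2-T22 in kb, with H2- genes in red, filled points for an adjusted p under 0.05 and the median F of all genes, 1.21, as a dashed line. H2-T22 (28.1) and BC023719 (17.0) stand above all other points, and a second set of filled points lies near H2-D1.

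The correlation between regions gave a similar count. With the mean of each group subtracted from log2(CPM + 0.25), 24 of 110 genes of the locus had a Pearson r with an adjusted p under 0.05 over 39 mice, against 18.9% of 27874 genes (permutation test within groups). Both shares were taken over all genes measured in both regions, including genes whose mice fell into separate levels. No pooled r is given for H2-T22 and BC023719, whose mice fell into separate levels in both regions, or for H2-T23, whose mice did so in the mPFC. Among the others, Gm11127 had r = 0.774 and rho = 0.799 and Abhd16a had r = 0.769 (permutation p = 1e-05, the smallest the permutations can give, adjusted p = 0.000288) and rho = 0.657 (permutation p = 4e-05). Gpank1 had r = 0.710 and rho = 0.737, and r of 0.690 without the 2 mice farthest from the median. Lta had r = 0.682 and rho = 0.566, on levels of 0 to 1.37 CPM. Aif1 had r = 0.662 and rho = 0.707 (adjusted p = 0.000474 and 0.000378). For H2-D1, r was 0.522 (permutation p = 0.00222, adjusted p = 0.0164), rho was 0.506 (permutation p = 0.00255, adjusted p = 0.0217) and r without the 2 farthest mice was 0.458. H2-Q4 had r = 0.240 (permutation p = 0.154, adjusted p = 0.366) and rho = 0.291 (permutation p = 0.0827), and H2-Q10 had r = -0.001 (permutation p = 0.996).

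**Figure D4:**
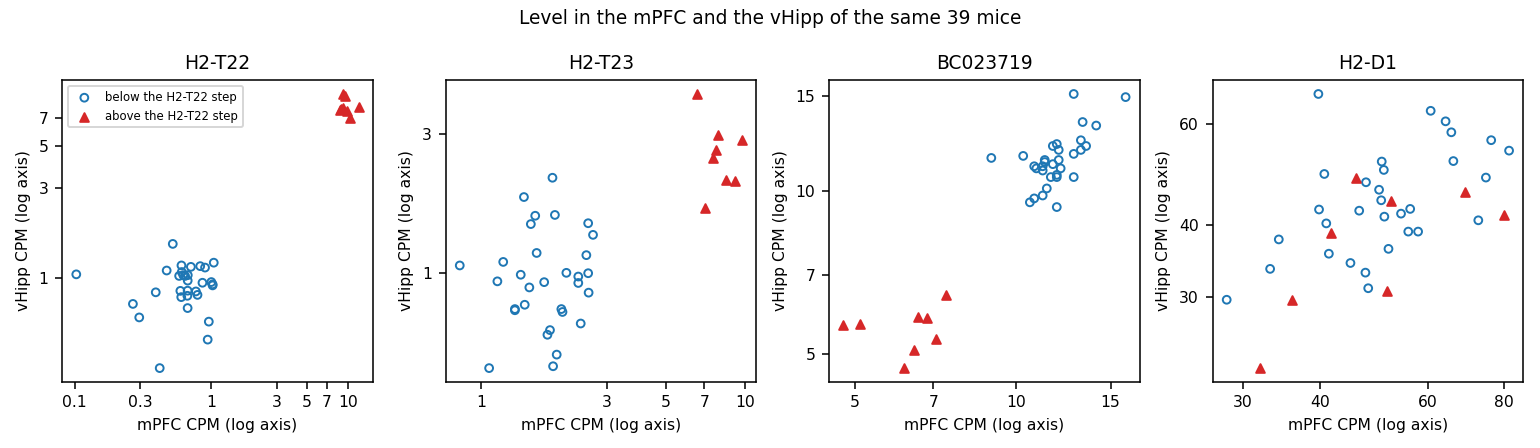
CPM in the mPFC (x, log axis) and the vHipp (y, log axis) of H2-T22, H2-T23, BC023719 and H2-D1 in the 39 mice with both regions, with the 8 mice of the high H2-T22 level as red triangles and the other 31 as open circles. The triangles form a separate cloud at the upper right for H2-T22 and H2-T23 and at the lower left for BC023719, and they mix with the circles for H2-D1, where r was 0.522.

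H2-D1 varied over mice together with other antigen presentation genes and with genes of other cell types. In the mPFC, 8 genes of the locus (6.84%) correlated with H2-D1 at an adjusted p under 0.05, against 4.87% of 28992 genes. H2-Q4 was the highest of the locus, with r = 0.793 and rho = 0.768 over 39 mice (permutation p = 1e-05 for each, the smallest they can give, adjusted p = 0.00203 and 0.00377) and r of 0.784 without the 2 farthest mice. The other positive ones were Ddah2 (r = 0.696, rho = 0.687), Clic1 (r = 0.653, rho = 0.556), the microglia gene Aif1 (r = 0.632, rho = 0.591), H2-T24 (r = 0.556, rho = 0.437), H2-T-ps (r = 0.544, rho = 0.569) and Ddr1 (r = 0.527, rho = 0.548). Gpank1 had r = -0.550 and rho = -0.555. The permutation p of r for these 7 lay between 1e-05 and 0.00112, and for H2-T24 rho did not pass adjustment (adjusted p = 0.119). Outside the window, H2-K1, the other classical heavy chain, had r = 0.868 and rho = 0.873 (adjusted p = 0.00203 and 0.00377) and was the highest of all genes. Tapbp, which helps to load peptides, had r = 0.749 and rho = 0.709, and B2m, the light chain, had r = 0.640 and rho = 0.602. The genes at ranks 3 to 10, each with r between 0.754 and 0.792, were Col18a1, Col1a1, Eya2, Serpinh1, Bmx, Bgn, Anpep and Tfap2b. Of the marker lists, 3 of 4 astrocyte genes (Gfap with r = 0.745 and rho = 0.694, Aqp4 with r = 0.711 and rho = 0.677, and Aldh1l1 with r = 0.556 and rho = 0.464), 4 of 5 endothelial genes (r between 0.507 and 0.531), 2 of 7 microglia genes and 1 of 4 choroid plexus genes had an r that passed with a positive sign. By rho, Gfap and Aqp4 of the astrocyte genes, 2 of the endothelial genes, 1 of the microglia genes and none of the choroid plexus genes passed. Of the 4 striatum genes, the dopamine receptor genes Drd1 (r = -0.586, rho = -0.515) and Drd2 (r = -0.566, rho = -0.549) passed with a negative sign, and Adora2a (r = 0.342, rho = 0.299) and Rgs9 (r = -0.248, rho = -0.221) did not pass. No oligodendrocyte, neuron, blood, lymphocyte, cortex or hippocampus gene of the lists passed. Their part in the covariation of H2-D1 was not tested. In the vHipp (40 mice), no gene passed adjustment (smallest adjusted p = 0.145), and 17 genes of the locus (15.2%) and 10.8% of all genes had an unadjusted permutation p under 0.05. Aif1 ranked 1 of all genes with r = 0.795 and rho = 0.798, Fbxw17 ranked 2 (r = 0.678, rho = 0.563) and Bad 4 (r = 0.637, rho = 0.716), and of the antigen presentation genes H2-K1 ranked 3 (r = 0.642, rho = 0.621) and Tapbp 5 (r = 0.634, rho = 0.672). Whether the regions differ in these correlations was not tested.

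Genes of the locus differed between the regions about as often as all genes did. Between the mPFC and the vHipp, 57 genes of the locus were called (46.0% of those tested), against 48.9% of all genes. Of these, 45 were higher in the mPFC, against 24.5% of all genes, and 12 were lower, against 24.4% of all genes. The median LFC was 0.20 over the locus and 0.00 over all genes. Of the 17 H2- genes, 11 were called, 9 of them higher in the mPFC.

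H2-Q10, a class I chain known as a secreted product of the liver, had the largest difference. It had 0.771 to 3.77 CPM in the mPFC (median 1.82) and 0 to 0.622 CPM in the vHipp (median 0.181), so the regions did not overlap, at an LFC of 3.14 (standard error 0.15, adjusted p = 5.58e-33). H2-M6-ps, a pseudogene, had an LFC of 1.88 (standard error 0.14, adjusted p = 3.99e-20). H2-T23 was higher in the mPFC by an LFC of 1.12 (standard error 0.19, adjusted p = 3.46e-07), whereas H2-T22 had an LFC of -0.06 (standard error 0.32, adjusted p = 0.922). In the 8 mice the median of H2-T23 was 7.79 CPM in the mPFC and 2.55 CPM in the vHipp, and that of H2-T22 was 9.31 and 7.87 CPM. In the other mice the medians were 1.82 and 0.932 CPM for H2-T23 and 0.670 and 0.939 CPM for H2-T22. The LFC of H2-T22 thus combines mice whose medians differed in opposite directions, and its standard error includes the step between the levels. H2-Q7 (LFC 0.86), H2-Bl (0.82), H2-T-ps (0.75), H2-Q6 (0.46), H2-Q4 (0.46) and H2-D1 (0.22, standard error 0.07, adjusted p = 0.0116) were also higher in the mPFC. H2-T10 was lower in the mPFC, at an LFC of -0.44 (standard error 0.07, adjusted p = 2.1e-07), and so was H2-T3, at an LFC of -0.61 (standard error 0.20, adjusted p = 0.00765). H2-T24 had an LFC of 0.07 and H2-M5 of 0.08, and neither passed the test.

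Among the other genes, Tcf19 had 4.76 to 8.08 CPM in the mPFC and 1.33 to 3.58 CPM in the vHipp, at an LFC of 1.43 (standard error 0.06, adjusted p = 8.62e-38), the smallest adjusted p of the locus. The ubiquitin ligase gene Trim31 (LFC -3.0, standard error 0.40) and Gm20546 (LFC -2.48, standard error 0.43) were lower in the mPFC, both at or near 0 with at most 0.352 and 0.224 CPM in the vHipp. Gm9573 (LFC 2.44), ENSMUSG00000118589 (LFC 1.96) and Gm20442 (LFC 1.79) were called as higher in the mPFC on medians of 0 and at most 5 reads in a library. Zfp57 (LFC -0.32) and Rpp21 (LFC -0.32) were lower in the mPFC at levels near 10 CPM.

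Of the 16 class I partner genes, 6 were higher and 3 lower in the mPFC, where 48.9% of all genes were called. H2-K1 (LFC 0.44), B2m (0.33), Tapbp (0.66), Tapbpl (0.79), Psmb10 (0.26) and Erap1 (0.13) were higher, and the peptide transporter genes Tap1 (-0.33) and Tap2 (-0.33) and the interferon factor Irf1 (-0.27) were lower. Of the cell type markers, 4 of 4 hemoglobin genes (median LFC 1.03), 3 of 4 lymphocyte genes, which summed to less than 1 CPM, 2 of 5 endothelial genes and 2 of 7 microglia genes were higher in the mPFC. Of 4 striatum genes 3 were higher and 1 lower, of 4 choroid plexus genes 1 was higher and 2 lower, of 4 astrocyte genes 1 was higher and 1 lower, and 3 of 5 neuron genes were lower. None of the 5 oligodendrocyte genes was called, and the endothelial and microglia shares lie below the 48.9% of all genes. Their part in the difference was not tested.

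**Figure D5:**
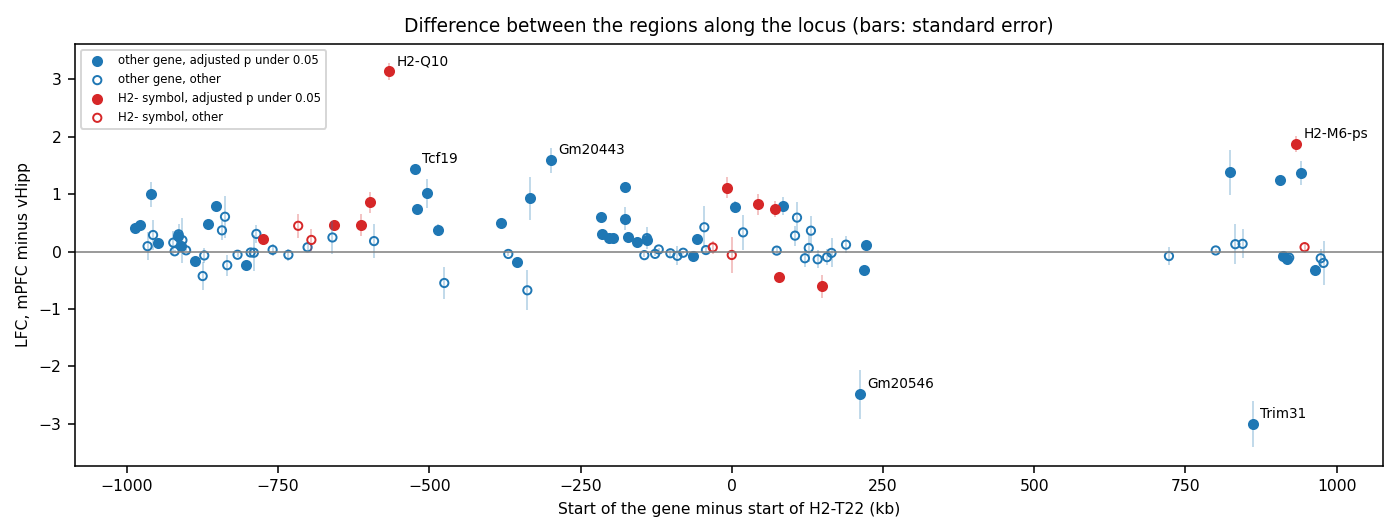
LFC of the mPFC against the vHipp (bars: standard error) for genes of the locus with a median above 0 in at least 1 region, against the distance of their start from that of H2-T22 in kb, with H2- genes in red and filled points for an adjusted p under 0.05. H2-Q10 stands at 3.14 and H2-M6-ps at 1.88, and Gm20546 and Trim31 lie below -2.

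Stress and ketamine were compared within each region in 5 contrasts, and these share groups, so their results are not independent. No gene of the locus passed an adjusted p of 0.05 in any of the 10 comparisons with edgeR, and none of all genes tested did (0.0% of 28993 in the mPFC and 28991 in the vHipp). DESeq2 called none of the locus either, and for stress in ketamine-treated mice its unadjusted p was under 0.05 for 12 genes (mPFC) and 7 genes (vHipp). The smallest adjusted p of a gene of the locus was 0.830 for stress in ketamine-treated mice in the mPFC. At an unadjusted p under 0.05, that comparison held 13 genes of the locus (11.0% of those tested), against 5.80% of all genes. Of these 13, 7 had a positive LFC (2.42% of all genes) and 6 a negative one (3.38%), and 4 were H2- genes. In the vHipp, the same comparison held 7 genes (6.19%) by this rule, against 5.42% of all genes.

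The genes with the smallest unadjusted p in this comparison included those that followed the 8 mice, 5 of which are ketamine-treated CSDS mice. In the mPFC the LFC of H2-T22 was 2.97 (standard error 0.72, unadjusted p = 0.00016), and it was 2.29 in the vHipp (standard error 0.57, unadjusted p = 0.000221), with mice of ketamine-treated CSDS on both sides of the step in either region. H2-T23 had an LFC of 1.49 (standard error 0.40, unadjusted p = 0.000602) and 0.80 (standard error 0.32, unadjusted p = 0.0166). Gtf2h4 in the mPFC had an LFC of 0.24 (standard error 0.07, unadjusted p = 0.000993), and 2310061I04Rik had 0.17 in the mPFC (unadjusted p = 0.0171) and 0.18 in the vHipp (unadjusted p = 0.00628). BC023719 had medians of 7.39 CPM (4.75 to 16.0) in ketamine-treated CSDS mice and 11.9 CPM (8.98 to 13.2) in ketamine-treated CTRL mice in the mPFC, at an LFC of -0.36 (standard error 0.16, unadjusted p = 0.0339). In the vHipp its LFC was -0.37 (standard error 0.17, unadjusted p = 0.0383). Aif1, for which the 8 mice filled 4 of the 8 lowest places in the mPFC (2 in the vHipp), had a fitted LFC of -0.43 in the mPFC (standard error 0.14, unadjusted p = 0.00492).

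No cell type marker passed adjustment in the same comparison, and their values stand here beside those of the locus. For stress in ketamine-treated mice, 5 of 7 microglia genes had an unadjusted p under 0.05 in the vHipp (median LFC 0.30), where Aif1 had an LFC of -0.20, and 1 of 7 did in the mPFC (median LFC 0.11). The vHipp values include the library of mouse 11, and the median summed microglia level was 272 CPM in CSDS ketamine (661 in mouse 11) and 266 CPM in CTRL ketamine. In the mPFC the median LFC was 0.44 for the 5 oligodendrocyte genes, none of which had an unadjusted p under 0.05, and -0.93 for the 4 choroid plexus genes, of which 2 did. In the vHipp the difference of the mean log2 values of H2-T23 was 0.561, and it was 0.413 without mouse 11, the library with the high glial sums. The part of these markers in the differences of the locus was not tested.

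Stress in saline-treated mice held 9 genes of the locus (7.63%) by the unadjusted p in the mPFC, against 2.94% of all genes, and 1 in the vHipp, against 5.57%. Lta (LFC -0.91, standard error 0.35, unadjusted p = 0.0128), Aif1 (LFC -0.33, unadjusted p = 0.0218) and H2-T-ps (LFC -0.53, unadjusted p = 0.0304) had the smallest p in the mPFC. H2-D1 had medians of 44.6 CPM (28.2 to 72.6) in CSDS mice and 60 CPM (41.4 to 81.5) in CTRL mice, at an LFC of -0.32 (standard error 0.15, unadjusted p = 0.0374), and the groups overlapped. For H2-T22 the difference of the mean log2 values in these groups was 0.31 in the mPFC, and it was -0.03 without mouse 2 and 0.66 without mouse 22. Gpank1 was the single gene of the vHipp (LFC 0.28, unadjusted p = 0.0230). In that comparison 3 of 4 choroid plexus genes (median LFC 1.93), 3 of 4 hippocampus genes (0.86), 2 of 7 microglia genes (0.23), 2 of 5 endothelial genes (0.27), 2 of 4 hemoglobin genes (0.44) and 2 of 4 striatum genes (-0.24) had an unadjusted p under 0.05, and their part in the value of Gpank1 was not tested. The vHipp library of mouse 9 (CSDS, saline) had summed choroid plexus genes of 697 CPM. The medians of these sums were 23.8 CPM in CSDS saline and 22.1 CPM in CTRL saline.

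Ketamine against saline held, by the unadjusted p in the mPFC, 4 genes of the locus in CTRL mice and 3 in CSDS mice, against 3.64% and 4.32% of all genes. In the vHipp there were 1 and 3, against 2.88% and 2.90%. In CTRL mice, Sfta2 (LFC -2.0), Gm28033 (LFC 2.46) and Gtf2h4 (LFC -0.15) in the mPFC and Gm8909 (LFC -1.06) in the vHipp had the smallest p. In CSDS mice these were Gm6034 (LFC -0.63, unadjusted p = 0.00682), 2310061I04Rik (LFC 0.17) and H2-T10 (LFC -0.31, unadjusted p = 0.0492) in the mPFC, and Ncr3-ps (LFC -2.39), H2-Bl (LFC -1.14) and 2310061I04Rik (LFC 0.14) in the vHipp. The interaction of stress and ketamine held 9 genes in the mPFC, against 5.31% of all genes, led by Gm23442 (LFC -2.09), Gtf2h4 (LFC 0.23) and H2-T22 (LFC 2.27), and in the vHipp 1, H2-T22 (LFC 1.90), against 2.84%. Several of the large LFCs rest on few reads: over all 79 libraries together, Gm28033 had 22 reads, Sfta2 30, Ncr3-ps 34 and Gm23442 166. Markers with an unadjusted p under 0.05 in the ketamine and interaction comparisons included 4 of 4 choroid plexus genes for ketamine in CSDS mice in the vHipp (median LFC -3.96) and 2 of 4 hippocampus genes for ketamine in CTRL mice there (0.62). The choroid plexus value includes the CSDS saline library of mouse 9, with a summed level of 697 CPM. The medians of the sums were 23.8 CPM in CSDS saline and 19.3 CPM in CSDS ketamine. The part of these markers in the values of the locus was not tested. Of the class I partner genes, none of 16 passed adjustment in any of the 10 comparisons, and 1 had an unadjusted p under 0.05, for stress in saline-treated mice in the vHipp.

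The cytokine genes of the locus were near the limit of detection. Tnf had between 0 and 7 reads in a library of the mPFC and between 0 and 6 in the vHipp, Ltb between 1 and 19 and between 1 and 14, and Lta between 0 and 21 and between 0 and 29. At the ends of the window, Gm23421 had no count, Clic1 had medians of 6.00 CPM in the mPFC and 4.16 CPM in the vHipp, and Gm22388 had at most 4 reads in a library.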

How the data were processed

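Raw counts per gene (whole numbers, not normalized) were deposited by the authors for 79 libraries, made with a stranded mRNA kit from RNA of integrity 8 or more and counted on GRCm38. The submitters' processing notes name bcl2fastq 2.20.0.422 and CASAVA. The aligner, the counting program and the use of strand are not given in the sources used here. Reads of outbred mice were counted on a reference genome, and the effect of sequence differences on the counts was not tested. Symbols and positions came from GENCODE M21, which matched 181 of the 182 genes.

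Counts were tested with edgeR 4.0.16 (quasi-likelihood, TMM, R 4.3.3), all groups of a region in one fit without covariates, two-sided, with Benjamini-Hochberg adjustment over all genes tested. The comparison of the regions used the 8 region and group means in one fit of all libraries, without a mouse term. Genes needed more than 10 counts in total and more than 3 libraries with a count. The test of the spread between mice used the 39 mice with both regions, 8 region and group means, 35 mouse terms and 35 residual degrees of freedom, and left out the vHipp of mouse 5. Correlations used log2(CPM + 0.25), group means subtracted, and 100000 permutations (20000 without the 2 farthest mice), with adjustment over all genes. Within the H2-T22 levels no group mean was subtracted. RPKM were computed from TMM-scaled counts and the deposited gene length. Scripts were tested on simulated data. The labels give no separate source of the samples beyond the mouse, so p-values measure the spread between mice and their libraries.

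Libraries of the 2 regions were paired by the mouse number in the labels. Over 15523 genes, deviations from the group means correlated between the regions of a mouse with a median r of 0.256 (lowest -0.0325, over 0.1 in 36 of 39 mice, highest with the same mouse in 21 of 39), against -0.0237 for different mice of a group.

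Genes named in the text are H2-T22, H2-T23, H2-D1 and the tested H2- genes, genes that part the same mice in both regions, the 10 with the smallest p of the spread between mice, the 3 with the smallest p per group comparison, the 5 with the largest LFC each way between regions, the 10 highest RPKM per region, Aif1, Mog, Tnf, Lta, Ltb and the 2 at each end of the window. Others (such as A930015D03Rik, Gm6034, Gm19684, Gm8801 and the remaining genes correlated with H2-D1) were named after their values were seen. The genes of the locus and all lists were chosen with earlier results of these data known. Alternatives were DESeq2 1.42.0, RLE, other filters, limma-voom 3.58.1 and other pseudocounts. The correlation with H2-D1, the correlations within the H2-T22 levels and the step without a minimum were added after the data were seen.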

Additional observations from a re-analysis of the deposited data

Results flagged for a closer look

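In 17 genes of the locus and 8 groups of libraries, the highest or lowest mouse was set apart in 16 by its gap to the nearest mouse (above Dixon's 95% critical value, on CPM). In 15 the mouse was high and in 1 it was low. A count of about 6.8 would hold for independent, normally distributed values in genes chosen without regard to such gaps. H2-T22 and BC023719 were named because they part the 8 mice from the others, and levels of several genes go together. The 16 are therefore a description and cannot be weighed against 6.8. Mouse 22 is the only one of the 8 mice in CTRL saline, so its gaps in H2-T22 follow from the step. Mouse 22 (CTRL, saline) accounted for 5: H2-T22 at 9.40 CPM in the mPFC (nearest 1.02) and 9.22 CPM in the vHipp (nearest 1.10), H2-T23 at 7.86 CPM in the mPFC (nearest 2.65), BC023719 low at 6.81 CPM in the mPFC (nearest 10.8) and Mog at 67.4 CPM in the mPFC (nearest 28.4). Mog was also high in the mPFC of mouse 2 (CSDS, saline), at 57.5 CPM (nearest 27.4).

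Genes of the Q group stood apart in other mice. In the vHipp of mouse 39 (CTRL, saline), H2-Q4 was at 7.10 CPM (nearest 4.87), H2-Q6 at 2.13 CPM (nearest 0.990) and H2-Q7 at 1.55 CPM (nearest 0.502). H2-Q7 reached 1.95 CPM in the vHipp of mouse 40 (CTRL, ketamine, nearest 0.678) and 2.42 CPM in the mPFC of mouse 3 (CSDS, ketamine, nearest 1.43). The library of mouse 39 had the highest summed microglia genes of its group (283 CPM, median 252). That of mouse 40 had the highest summed microglia (311 CPM, group median 266), endothelial (155 CPM) and astrocyte genes (1120 CPM, median 943) of its group, and that of mouse 3 the highest class I partner, endothelial (243 CPM, median 169) and astrocyte genes (1260 CPM, median 805). H2-Q10 reached 0.492 CPM in the vHipp of mouse 18 (CSDS, saline, nearest 0.335). In the vHipp of mouse 4 (CSDS, saline), H2-D1 was at 67.6 CPM (nearest 49.1) and H2-T24 at 1.84 CPM (nearest 1.20), and the summed hemoglobin genes of this library were the highest of its group, at 263 CPM (group median 62.9), as were its summed microglia genes, at 378 CPM (group median 286), and its summed class I partner genes. H2-T24 was at 1.68 CPM in the mPFC of mouse 21 (CTRL, ketamine, nearest 1.19), which had the highest summed endothelial and astrocyte genes of its group, and H2-M5 at 3.05 CPM in the mPFC of mouse 33 (CTRL, saline, nearest 1.91). The part of these markers in the levels was not tested.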

How the results depend on the processing

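With the mouse as a replicate block, 60 genes of the locus were called between the regions, 56 of them among the 57 called without it. DESeq2 called 51, RLE normalization 56, no filter 55 and filterByExpr, which tests fewer genes, 43. The spread between mice was called for 26, 26, 30 and 32 genes under RLE, no filter, filterByExpr and limma-voom, and the correlation between regions for 21 by Spearman's rho, 25 with a pseudocount of 1, 27 without TMM factors and 21 without the 2 farthest mice. No genes of the locus passed adjustment in the group comparisons under DESeq2, RLE or the other filters. Without a minimum step, an alternative added after the data were seen, 2 genes in place of 1 parted the same mice in both regions, since BC023719 has a step below 1. Mice were left out in turn for 17 genes, not for the others named. For stress in saline-treated mice in the mPFC the H2-T22 difference ran from -0.029 without mouse 2 to 0.655 without mouse 22 and that of H2-T23 from -0.065 to 0.342 without the same mice. Genes under about 1 CPM, which include most H2- genes, rest on few reads, and the sharing of reads between class I genes limits each level.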

Other observations

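Of the 16 class I partner genes, 7 had a spread between mice that both regions share at an adjusted p under 0.05 (edgeR), where 18.7% of all genes tested did. These were Calr (adjusted p = 1.73e-07), Canx (adjusted p = 9.39e-06) and Pdia3 (adjusted p = 0.000147), which are chaperones of the endoplasmic reticulum, Psmb10 (adjusted p = 0.00187), Tapbpl (adjusted p = 0.0061), Tap2 (adjusted p = 0.0303) and H2-K1 (adjusted p = 0.0387). B2m had an adjusted p of 0.0876 and Tap1 of 0.115. Of the cell type lists, 4 of 4 hemoglobin genes, 2 of 7 microglia genes, 2 of 4 choroid plexus genes, 2 of 4 striatum genes, 1 of 4 hippocampus genes and 1 of 5 endothelial genes were called in the same test, and none of the oligodendrocyte, astrocyte, lymphocyte, neuron and cortex genes. At these list sizes, 1 or 2 called genes are close to the share over all genes for several of these lists.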
